A study of Mus musculus with 24 samples.

Results

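The 9 genes described here belong to retinoic acid signalling and to the dormancy of hematopoietic stem cells (HSCs). They were chosen by name, and 6 of the 9 had a row among the 18762 genes of the table of normalized read counts: *Cyp26b1*, *Rara*, *Rxra*, *Rxrb*, *Crabp1* and *Gprc5c*. The other 3, *Rarb*, *Rarg* and *Aldh1a1*, are not analysed here. The RNA came from HSCs of wild-type (WT) C57BL/6 mice, 5 of them young (4 to 5 months) and 7 old (20 to 22 months). The cells were sorted by flow cytometry as LSK-SLAM cells, which lack lineage markers and CD48 and carry Sca-1, c-Kit and CD150, and each library was made from 300 pg of ribosomal-depleted RNA of 15000 cells. Both ages shared strain, genotype and gate, no treatment or transgene is given for either, and the labels name age as what sets the groups apart. Each mouse stands in the labels as 2 samples, 1 for each sequencing lane, and in the table as 1 column. The comparison asks whether these genes were transcribed at other levels in old HSCs than in young ones.

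Retinoic acid is made from vitamin A. Retinol is oxidized to retinaldehyde by enzymes such as RDH10, retinaldehyde is oxidized to retinoic acid by the ALDH1A enzymes, and CYP26 enzymes hydroxylate retinoic acid and so end its action. Inside the cell CRABP proteins bind it, and in the nucleus it binds RAR receptors, which sit on DNA together with RXR receptors and recruit coactivators in place of corepressors. In HSCs the pathway is known for supporting dormancy, a deep and reversible quiescence, and the orphan receptor gene *Gprc5c* marks dormant HSCs.

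A letter, A or B, closes the label of each mouse, and its meaning is not given. Letter A covered 2 young and 4 old mice and letter B 3 young and 3 old mice. Depth went with the letter: libraries of letter A held 861047 to 3106243 reads on genes and those of letter B 3233516 to 5118507, while the young libraries held 2049091 to 5118507 and the old ones 861047 to 5004774. A count of 3 reads was worth 0.583 to 3.69 normalized counts, depending on the library. The sorted cells carried all 8 stem cell markers checked, at a summed level of 2895 to 4795 in young and 1474 to 5249 in old mice. The lowest sum was that of old mouse 5, which was lowest of the 12 mice in 7 of the 8 markers, with *Kit* at 546 against 853 to 2049 in the others. The 7 neutrophil and monocyte markers summed to 96.3 to 352 in young and 60.1 to 1775 in old mice and the 6 erythroid markers to 78.1 to 175 and 53.1 to 561, and old mouse 6 was the highest in both lists. No tested marker of these lists or of 5 other cell types passed the age test with the letter in the model. In bulk RNA, fewer cells of a type and less RNA per cell cannot be told apart.

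Retinoic acid receptors bind pairs of short half-sites. As a reference for what such a pair looks like, direct repeats of the half-site AGGTCA and of its known variants (AGTTCA, which differs inside the site, GGGTCA, which differs at its left end, and GGTTCA, which differs at both places, all searched on both strands, spacers of 1, 2 and 5 bases) were looked up in RefSeq promoter windows from 250 bases before to 50 bases after each start (GRCm38.p6). A repeat with a spacer of 5 stood in 0.0974% of the 32851 windows, with a spacer of 2 in 0.268% and with a spacer of 1 in 0.222%. Of 116 pathway and dormancy genes, 88 had a window and 3 of them held a repeat. The windows of *Rarb* and *Cyp26a1*, a receptor gene and a breakdown enzyme gene that are textbook targets of retinoic acid, held one with a spacer of 5. They are shown 5′ to 3′ with the half-sites in capitals. That of *Rarb* lies at chr14:16575513-16575529 (gene on the minus strand), 53 bases before the start and in the direction of the gene. That of *Cyp26a1* lies at chr19:37697776-37697792 (gene on the plus strand), 32 bases before the start and on the opposite strand.
Rarb: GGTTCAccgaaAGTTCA
Cyp26a1: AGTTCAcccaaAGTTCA
The window of *Cyp26b1*, the member on which the age comparison turns, held none of these repeats. Its sequence just before the gene is shown because it leads up to the annotated start of the gene. It spans the 152 bases at chr6:84593909-84594060 (GRCm38.p6, minus strand), which border the GENCODE gene, and 65.1% of them are G or C. Capitals mark the boxes of general promoters found in it, searched on both strands: GGGCGG (2 matches, here once as its reverse complement, and held by 17.0% of the same stretches of all windows) and TATAAA (1 match, 7.38% of stretches), which begins 41 bases before the annotated start of the gene. CCAAT, held by 20.3% of stretches, was not among its letters.
Cyp26b1: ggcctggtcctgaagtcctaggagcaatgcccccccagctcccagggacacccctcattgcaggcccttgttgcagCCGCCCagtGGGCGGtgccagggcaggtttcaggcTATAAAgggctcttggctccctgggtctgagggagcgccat

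*Cyp26b1* (ENSMUSG00000063415, GRCm38 chr6:84571414-84593908, minus strand) encodes a cytochrome P450 that clears retinoic acid and is itself induced by it in many tissues. In young mice its normalized read counts were 35.8, 61.5, 34.7, 41.0 and 45.5 in mice 1 to 5. In old mice they were 302, 138, 94.0, 125, 58.4, 112 and 54.1 in mice 1 to 7. All 7 old mice lay above the young median of 41.0 and 5 of them above every young mouse, whereas old mice 5 and 7 lay between young mouse 2 and the other young mice. Young mice averaged 43.7 ± 10.9 (SD, n = 5) and old mice 126 ± 83.7 (SD, n = 7), a ratio of 2.89. On the log2(value + 1) scale the difference between old and young was 1.32 (SE 0.33, 95% confidence interval 0.63 to 2.02).

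**Figure D1:**
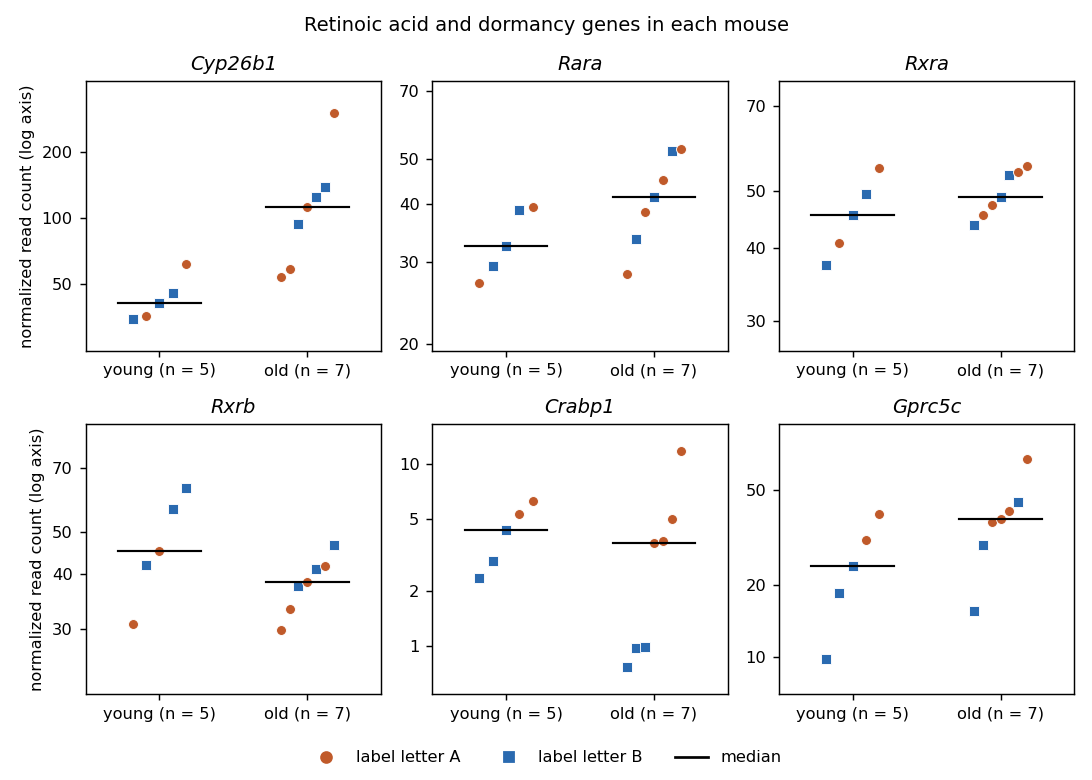
Normalized read count (log axis) of the 6 genes with a row in each of the 5 young and 7 old mice. Each point is 1 mouse, circles and squares mark label letters A and B, and lines are medians. *Cyp26b1* had a median of 41.0 in young and 112 in old mice, with old mouse 1 at 302.

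This difference did not pass the test across all genes when age alone was in the model (limma, p = 0.000857, adjusted p = 0.263 over 12354 genes). In that fit 13 genes, or 0.105% of those tested, had an adjusted p under 0.05, and 488 an unadjusted p under 0.05. None of the 5 members tested was among the 13, and *Cyp26b1* alone of the 5 was among the 488. With no trend the limma adjusted p of *Cyp26b1* was 0.595, and after median-ratio rescaling it was 0.601. By edgeR's quasi-likelihood test on the recovered reads the adjusted p of *Cyp26b1* was 0.153 and by DESeq2 it was 0.0090. In simulated data 12.2% of the calls of DESeq2 were false, against 6.12% for edgeR. An exact two-sided permutation test of this single gene over all splits of the mice into groups of 5 and 7 gave p = 0.00758, unadjusted, where the smallest p possible was 0.00126. It was 1 of 6 such tests.

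With the letter added to the model, *Cyp26b1* passed: the difference was 1.33 (SE 0.29, 95% confidence interval 0.73 to 1.93) with an adjusted p of 0.0369 by limma. Here 37 genes, or 0.299%, passed, and *Cyp26b1* was the 1 member of 5 among them. The letter difference of *Cyp26b1* itself was 0.03, with an SE of 0.29 with trend and 0.37 with no trend. Its age difference in this model was not computed with no trend. Within letter A alone *Cyp26b1* ranged from 35.8 to 61.5 in the 2 young and from 54.1 to 302 in the 4 old mice, which overlapped, and the log2 difference was 1.10 (adjusted p = 1.0). Within letter B it ranged from 34.7 to 45.5 in the 3 young and from 94.0 to 138 in the 3 old mice, without overlap, and the log2 difference was 1.53 (adjusted p = 0.00011). Of all genes tested, 12.9% had ages that did not overlap in letter B. The age difference of *Cyp26b1* was not shown to differ between the letters (interaction 0.43, SE 0.59, adjusted p = 1.0).

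Old mouse 1 was far above the other old mice in *Cyp26b1*. Without it the log2 difference was 1.08 (adjusted p = 0.351) for age alone and 1.11 (adjusted p = 0.0294) with the letter in the model. Without old mouse 6, the one highest in neutrophil, monocyte and erythroid markers, the values were 1.31 (adjusted p = 0.419) and 1.32 (adjusted p = 0.0551). Without old mouse 5, the one lowest in stem cell markers, they were 1.47 (adjusted p = 0.0650) and 1.46 (adjusted p = 0.00364). Leaving out each of the 12 mice in turn moved the difference between 1.08 and 1.49 for age alone, where the adjusted p was 0.0650 to 0.767, and between 1.11 and 1.51 with the letter in the model, where it was 0.00364 to 0.171. In the model with the letter the call was kept without young mouse 2 or 5 or old mouse 1, 5 or 7 and was lost without young mouse 1, 3 or 4 or old mouse 2, 3, 4 or 6. Every one of these differences was positive.

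**Figure D2:**
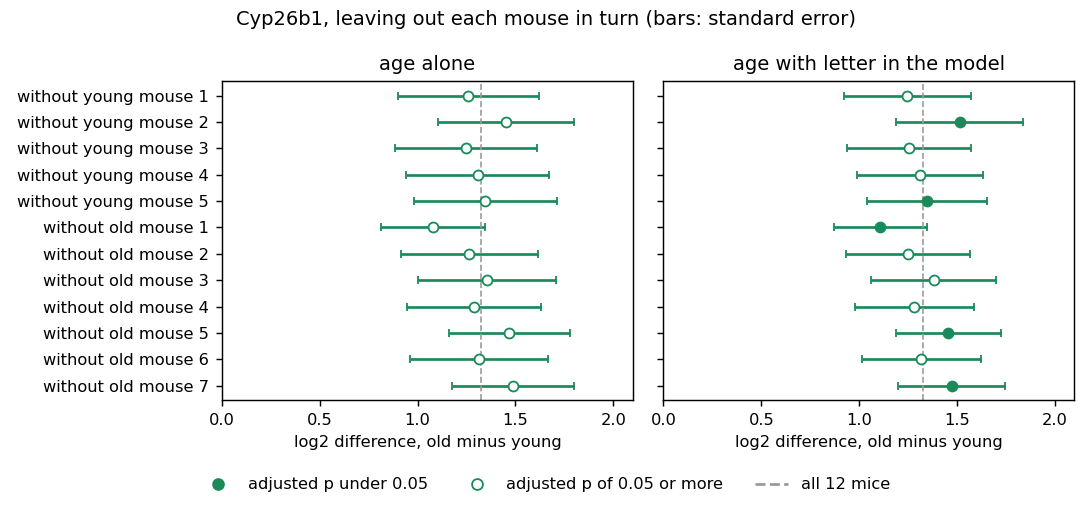
Log2 difference of *Cyp26b1* between old and young mice when each mouse is left out, with age alone (left) and with age and letter in the model (right). Points are limma estimates, bars are standard errors, filled points have an adjusted p under 0.05, and the dashed line is the value over all 12 mice. All 24 estimates lie between 1.08 and 1.51.

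The receptors differed less. *Rara* (ENSMUSG00000037992, chr11:98927818-98974942, plus strand) encodes the retinoic acid receptor alpha, and the annotation places a short RNA gene, *Gm22061*, inside it on the same strand. Its counts were 27.1, 39.4, 32.4, 29.4 and 38.8 in young mice 1 to 5 and 38.4, 51.9, 33.6, 41.4, 45.0, 52.4 and 28.3 in old mice 1 to 7. The ages overlapped, with 4 of 7 old mice above every young mouse and old mouse 7 below all young mice but young mouse 1. On the log2 scale old minus young was 0.29 (95% confidence interval -0.16 to 0.74, adjusted p = 1.0).

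*Rxra* (ENSMUSG00000015846, chr2:27676440-27762957, plus strand) encodes the partner receptor that RAR, PPAR, LXR and the vitamin D receptor share. It was the most even of the members, at 40.7, 54.8, 45.5, 49.4 and 37.3 in young mice 1 to 5 and 55.1, 48.8, 43.7, 53.3, 47.4, 53.8 and 45.5 in old mice 1 to 7. Only old mouse 1 exceeded every young mouse. Old minus young was 0.13 on the log2 scale (95% confidence interval -0.24 to 0.50, adjusted p = 1.0). *Rxrb* (ENSMUSG00000039656, chr17:34031812-34038399, plus strand), which encodes a second RXR, ran the other way. Young mice 1 to 5 had 30.8, 45.2, 56.5, 63.0 and 42.0 and old mice 1 to 7 had 38.4, 41.0, 46.7, 37.5, 41.8, 29.7 and 33.2. The ages overlapped, and 1 old mouse lay above the young median. This gave a log2 difference of -0.27 (95% confidence interval -0.72 to 0.17, adjusted p = 1.0). Changes as large as 0.74 in *Rara*, 0.50 in *Rxra* and -0.72 in *Rxrb* on the log2 scale lie within these intervals.

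*Crabp1* (ENSMUSG00000032291, chr9:54764748-54773110, plus strand), which encodes a cytosolic binding protein of retinoic acid, was close to the detection limit. It had 3 to 22 reads per mouse and a mean of 4.01, below the minimum mean of 10 for the test across genes. Counts were 5.29, 6.25, 2.94, 4.32 and 2.35 in young mice 1 to 5 and 4.97, 0.759, 0.979, 0.972, 11.8, 3.78 and 3.69 in old mice 1 to 7. The 3 low values are the old mice of letter B, with 3, 3 and 5 reads, and old mouse 5 is the highest of all. The ages did not overlap in letter B and overlapped over all mice. Of the genes tested, all with a mean of at least 10, 12.9% had ages that did not overlap in letter B. No such share was computed for genes as low as *Crabp1*. The log2 difference was -0.40, and the exact two-sided permutation test over all such splits gave p = 0.457.

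*Gprc5c* (ENSMUSG00000051043, chr11:114851152-114872617, plus strand) had counts of 39.5, 30.8, 9.81, 24.1 and 18.5 in young mice 1 to 5 and of 67.3, 29.4, 44.7, 15.6, 41.0, 37.8 and 36.9 in old mice 1 to 7. Young mice averaged 24.5 ± 11.4 (SD, n = 5) and old mice 39.0 ± 15.8 (SD, n = 7). The groups overlapped, with 3 old mice above every young mouse and 6 above the young median. The log2 difference of 0.67 (SE 0.35, 95% confidence interval -0.07 to 1.42) did not pass (p = 0.0727, adjusted p = 1.0), nor did that of 0.53 with the letter in the model (95% confidence interval -0.05 to 1.12, adjusted p = 1.0).

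*Gprc5c* did differ between the label letters. It ranged from 30.8 to 67.3 in the 6 mice of letter A and from 9.81 to 44.7 in the 6 of letter B, which overlapped, and with age in the model it was lower in letter B by a log2 difference of -0.82 (SE 0.28, 95% confidence interval -1.40 to -0.25, limma adjusted p = 0.0249). In this comparison 25.6% of the genes tested were called lower in letter B, that is 3161 genes with *Gprc5c* among them, and 1301 were called higher. With the counts rescaled by median ratios, which moved the median letter difference of all genes by 0.295, the split turned to 2536 lower and 3360 higher, and the value for *Gprc5c* was -0.53 (adjusted p = 0.105). The call was also lost without young mouse 1, 2 or 3 or old mouse 1 or 4 (adjusted p 0.0513 to 0.0928). The letter and the depth cannot be told apart, since no library of letter A was as deep as any of letter B. The letter differences of the other members did not pass: *Rxrb* 0.34 (adjusted p = 0.213, but 0.63 with an adjusted p of 0.0230 after median-ratio rescaling), *Rxra* -0.08, *Rara* 0.04 and *Cyp26b1* 0.03. No member was among the 2 genes, 0.0162% of those tested, whose age difference differed between the letters by limma. For that interaction 424 genes had an unadjusted p under 0.05, and edgeR called 2 genes.

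**Figure D3:**
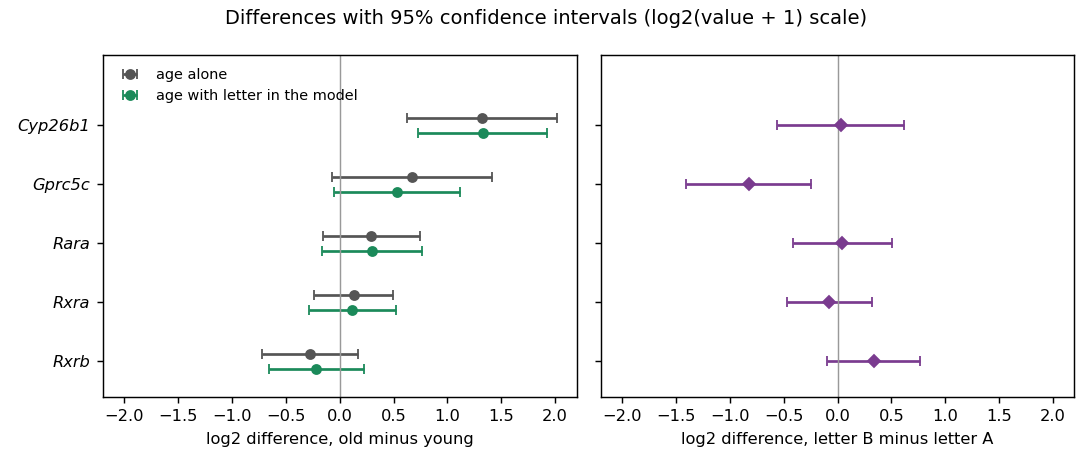
Log2 differences of the 5 tested genes with 95% confidence intervals from limma, on the log2(value + 1) scale, between old and young mice (left, with age alone in grey and with the letter in the model in green) and between label letters B and A with age in the model (right). The intervals of *Cyp26b1* exclude 0 for age, and that of *Gprc5c* excludes 0 for the letter.

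Levels were compared between the genes per kilobase of exon. In young mice *Rxrb* stood first at 11.96 ± 3.17 (SD, n = 5) normalized counts per kb, followed by *Rxra* at 8.34 ± 1.27, *Cyp26b1* at 8.17 ± 2.03, *Rara* at 7.66 ± 1.27, *Crabp1* at 5.27 ± 2.01 and *Gprc5c* at 4.68 ± 2.17. In old mice *Cyp26b1* stood first at 23.6 ± 15.6 (SD, n = 7), followed by *Rxrb* at 9.65 ± 1.42, *Rara* at 9.52 ± 2.06, *Rxra* at 9.09 ± 0.814, *Gprc5c* at 7.43 ± 3.004 and *Crabp1* at 4.81 ± 4.86. The mean ± SD of neighbours overlapped throughout both orders.

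The wider pathway was described by 8 lists of retinoid genes, 82 genes in all, of which 71 had a row and 50 were tested. For age alone none of the 50 passed by limma, and 4 had an unadjusted p under 0.05, beside 488 of all 12354 genes tested. By edgeR 1 (*Cd38*) passed, beside 18 of all genes, and by DESeq2 3 (*Cyp26b1*, *Rdh10* and *Cd38*), beside 57. The median log2 difference of the 50 was 0.05 beside -0.02 over all genes tested. With the letter in the model 3 of the 50, or 6.00%, passed, beside 0.299% of all genes. The 3 were *Cyp26b1*, *Rdh10* and *Cd38*, all higher in old mice. The members and lists were chosen with earlier results of these data known, so these shares are given as a description. Whether retinoid genes passed more often than other genes was not tested.

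In the list of retinol and retinaldehyde conversion, 13 of 20 genes were tested and 1 passed with the letter in the model. *Rdh10*, which encodes the retinol dehydrogenase that feeds the synthesis of retinoic acid, had counts of 22.1, 28.4, 46.1, 36.1 and 26.7 in young mice 1 to 5 and of 71.4, 61.99, 93.0, 64.7, 46.6, 63.3 and 59.0 in old mice 1 to 7. Every old mouse lay above every young mouse, the nearest pair being old mouse 5 and young mouse 3, and 57 genes (0.461% of those tested) had ages that did not overlap. The log2 difference was 1.04 for age alone (SE 0.22, limma adjusted p = 0.0987) and 1.10 with the letter in the model (SE 0.21, adjusted p = 0.00892). Without young mouse 1 or old mouse 3 the latter call was lost (adjusted p = 0.0801 and 0.0560), and with age alone *Rdh10* passed without old mouse 5, the mouse lowest in stem cell markers (adjusted p = 0.0308), and by DESeq2 (adjusted p = 0.0030) but not by edgeR (adjusted p = 0.105). *Dhrs3*, which encodes an enzyme that turns retinaldehyde back into retinol and is induced by retinoic acid, lay at 24.9 to 40.4 in the young and at 35.5 to 102 in the old mice. It did not pass (log2 difference 0.66, p = 0.0196, adjusted p = 0.970), and without old mouse 1, the highest, the difference was 0.48.

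Among the 18 genes that retinoic acid is known to induce, 9 were tested, and *Cd38* passed beside *Cyp26b1* with the letter in the model. *Cd38*, which encodes a surface enzyme that consumes NAD, had counts of 37.3, 40.4, 33.9, 34.9 and 37.9 in young mice 1 to 5 and of 146, 61.7, 120, 85.9, 48.9, 69.4 and 98.4 in old mice 1 to 7. The young mice were close together and every old mouse lay above them, a separation of the ages that 57 genes (0.461% of those tested) showed. The log2 difference was 1.18 for age alone (SE 0.24, limma adjusted p = 0.0773) and 1.18 with the letter in the model (SE 0.23, adjusted p = 0.0114). With the letter in the model the call was lost without young mouse 1, 3 or 4 or old mouse 3 (adjusted p 0.0516 to 0.0823), and with age alone it was made without old mouse 5 (adjusted p = 0.00805) and by edgeR (adjusted p = 0.0368) and DESeq2 (adjusted p = 0.00044).

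Apart from *Cyp26b1* in the list of breakdown enzymes, the remaining retinoid lists held no gene that passed in either age model by limma. Of the 6 retinoid receptors 4 were tested, with log2 differences for age alone of -0.27 to 0.43. Of the 10 genes of retinol uptake and retinoid binding 3 were tested, among them *Stra6l* at -0.38, and 7 were below the minimum, *Crabp1* and *Crabp2* included. Of the 5 genes of retinoic acid synthesis 2 were tested, *Aldh1a2* at -0.10 and *Aldh1a3* at 0.36, and their signs changed when single mice were left out, that of *Aldh1a3* also in letter B alone and by edgeR and DESeq2 with the letter. Of the 3 breakdown enzymes *Cyp26b1* was the one tested, with *Cyp26a1* at 0 to 11.1 and *Cyp26c1* at 0.589 to 31.2 normalized counts over all mice. The 13 tested coregulators lay between -0.22 and 0.07, with *Ncoa2* at -0.22 and *Gps2* at -0.21. The 9 tested partners of RXR lay between -0.08 and 0.30, with *Ppara* at 0.21 and *Pparg* at 0.30. Outside these lists, *Gprc5b*, the other tested gene of the Gprc5 family beside *Gprc5c*, had a log2 difference of -0.32 (adjusted p = 1.0).

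**Figure D4:**
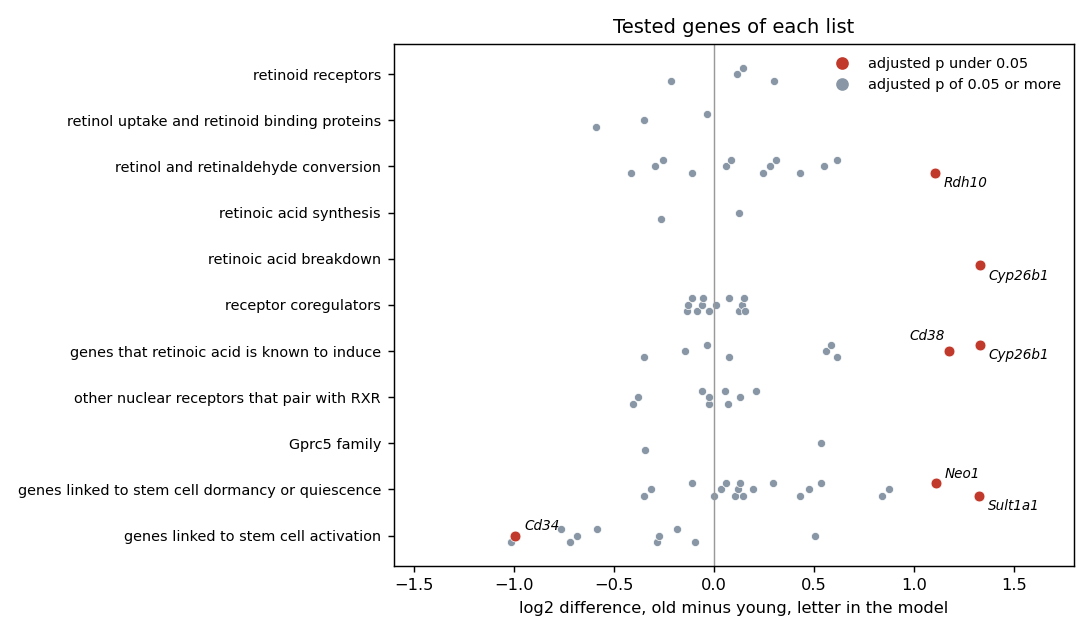
Log2 difference between old and young mice, with the letter in the model, of every tested gene of the 8 retinoid lists, the Gprc5 family and the lists of dormancy and activation genes. Each point is 1 gene, red points have an adjusted p under 0.05 over all 12354 genes, and *Cyp26b1* appears in 2 lists.

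Of 20 genes linked to HSC dormancy or quiescence, 19 were tested. By limma none passed for age alone, and 5 had an unadjusted p under 0.05, beside 488 of all 12354 genes tested. The median log2 difference was 0.12 beside -0.02 over all genes. For age alone *Sult1a1* passed by edgeR (adjusted p = 0.0483) and DESeq2 (adjusted p = 0.00027), and *Neo1* by DESeq2 (adjusted p = 0.0192) but not by edgeR (adjusted p = 0.230). With the letter in the model *Sult1a1* and *Neo1* passed, beside 0.299% of all genes. The list was chosen with earlier results of these data known, and the study had called *Neo1* in the same mice. Whether dormancy genes passed more often than other genes was not tested. *Sult1a1*, which encodes a sulfotransferase and is a known marker of aged HSCs, had 78.4, 63.0, 57.3, 78.3 and 67.0 in young mice 1 to 5 and 254, 203, 211, 251, 86.0, 123 and 111 in old mice 1 to 7. Every old mouse exceeded every young mouse, as for 0.461% of the genes tested, and the old mice of letter B with old mouse 1 stood highest. The log2 difference of *Sult1a1* was 1.25 for age alone (SE 0.26, limma adjusted p = 0.0848) and 1.32 with the letter in the model (SE 0.22, adjusted p = 0.00176). Without old mouse 5 *Sult1a1* passed with age alone (adjusted p = 0.00611). *Neo1*, the receptor gene the study is about, had a log2 difference of 0.998 (limma adjusted p = 0.256) and of 1.11 with the letter in the model (adjusted p = 0.00256). The study itself called *Neo1* higher in old HSCs by edgeR, and it does not state which edgeR test or covariates it used. It also reported higher *Neo1* by quantitative PCR, higher NEO1 protein, and *Neo1* among the genes that recurred across published data sets of HSC ageing. With age alone, limma and edgeR's quasi-likelihood test did not make the call here, which need not be the test the study ran. For *Sult1a1* and *Neo1* the call with the letter in the model was kept without each of the 12 mice (adjusted p up to 0.0165 and 0.0177).

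Of 12 genes linked to HSC activation, 11 were tested, and 10 had a negative log2 difference, with a median of -0.64 beside -0.02 over all genes. An unadjusted p under 0.05 was found for 6 of them, beside 488 of all 12354 genes tested. By limma none passed for age alone, and *Cd34* passed with the letter in the model, beside 0.299% of all genes. Whether activation genes differed more often than other genes was not tested. For age alone *Cd34* passed by edgeR (adjusted p = 0.0274) and DESeq2 (adjusted p = 6.1e-05). *Cd34*, which encodes a surface protein absent from the most primitive mouse HSCs, had 212, 99.5, 215, 224 and 157 in young mice 1 to 5 and 82.3, 87.0, 104, 83.2, 79.7, 69.4 and 86.1 in old mice 1 to 7. Young mouse 2 was the one young mouse within the range of the old mice. The log2 difference was -1.04 for age alone (SE 0.20, limma adjusted p = 0.0544) and -0.99 with the letter in the model (SE 0.19, adjusted p = 0.00856). The latter call was lost without young mouse 1, 3 or 4 (adjusted p 0.0540 to 0.124), and with age alone the gene passed without young mouse 2 (adjusted p = 0.00754) or old mouse 5 (adjusted p = 0.0357). *Top2a*, a topoisomerase gene of dividing cells, did not pass in either model (log2 difference -0.75, adjusted p = 0.642) and passed in letter B alone (log2 difference -0.95, adjusted p = 0.00841).

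**Figure D5:**
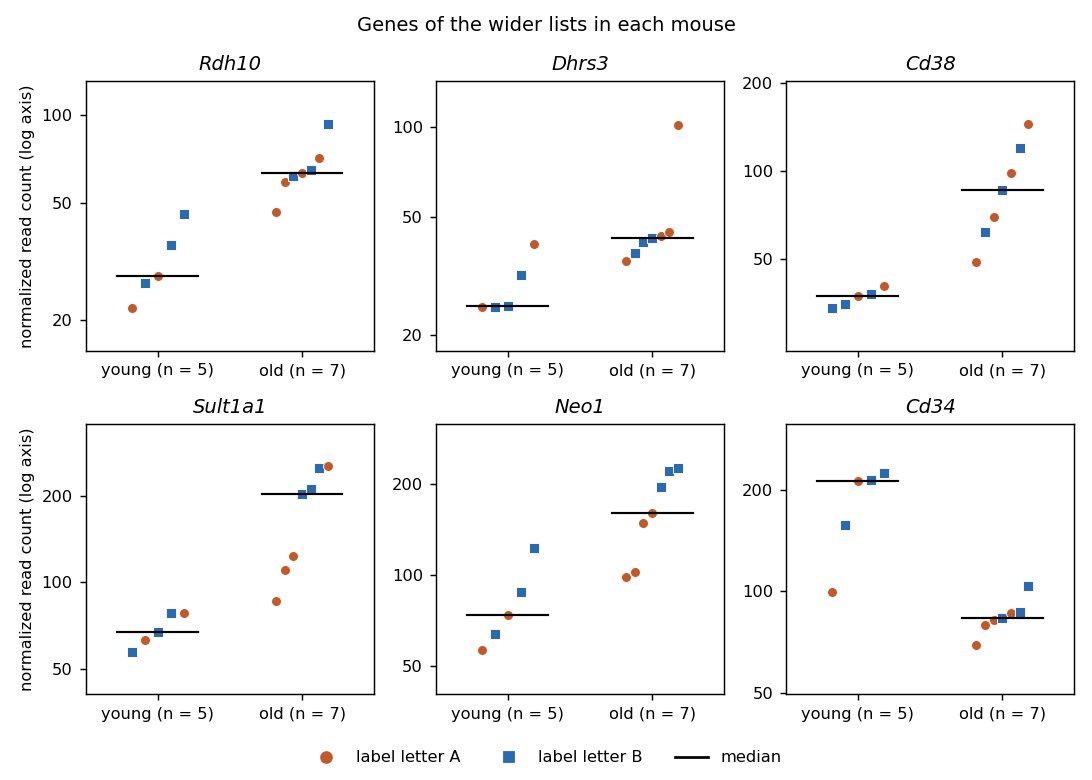
Normalized read count (log axis) in each of the 5 young and 7 old mice of *Rdh10*, *Dhrs3*, *Cd38*, *Sult1a1*, *Neo1* and *Cd34*. Each point is 1 mouse, circles and squares mark label letters A and B, and lines are medians. The ages do not overlap for *Rdh10*, *Cd38* and *Sult1a1*, as for 0.461% of the genes tested.

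The genes whose levels followed the members most closely from mouse to mouse, after the mean of each age and letter was removed, were *Otub1* (r = 0.951), *Rtl10* (r = 0.942) and *Lysmd2* (r = 0.926) for *Cyp26b1*, *Raver2* (r = 0.952) for *Gprc5c*, *Zfp513* (r = 0.931) for *Rara*, *Slc27a1* (r = 0.927) for *Rxra* and *Trim32* (r = 0.948) for *Rxrb*. These are the highest of 12354 correlations each, over 12 mice that share libraries and depth, and are given as a description. Among the members themselves the correlations ran from -0.22 between *Gprc5c* and *Rara* to 0.54 between *Rxra* and *Cyp26b1*, with 0.30 between *Gprc5c* and *Cyp26b1*. The members were not picked for a high correlation, so these values cannot be weighed against the highest ones.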

How the data were processed

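Per the labels, total RNA of 15000 sorted HSCs per mouse was depleted of ribosomal RNA and 300 pg were taken into the TotalScript kit. The submitters' processing notes name the mm10 build, STAR 2.5.4b, FastQC 0.11.8 and edgeR 3.24.3, and the tool and annotation used for counting are not given in the sources used here, nor whether counting used strand. The deposited signal values are normalized read counts, in which the authors scaled reads to library size and a normalization factor, in the manner of CPM, with 1 column for each of 12 mice. Since all values were whole multiples of 1 read (100% within 0.01), reads were recovered for edgeR and DESeq2. A second deposited table, which holds the authors' comparison of the ages (fold changes and p-values), was not used.

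Old and young mice were compared by limma 3.58.1 (lmFit and eBayes with trend) in R 4.3.3 on log2(value + 1), for 12354 genes with a mean of at least 10, with no covariate and Benjamini-Hochberg adjustment, called under 0.05. Differences on this scale understate those of low genes. The letter at the end of the sample descriptions was added as a covariate, tested with age in the model, and tested for an interaction with age. Single members were tested by exact two-sided permutation over all splits of the 12 mice into 5 and 7. edgeR 4.0.16 and DESeq2 1.42.0 served as alternatives. On simulated data for old against young (12354 genes) limma found 55.0% of 100 genes changed by 1 log2 unit. It found 74.0% of 100 changed by 1.5 log2 units, with 5.84% false calls. On the same data 6.12% of the calls of edgeR and 12.2% of those of DESeq2 were false. The simulation held no letter effect, whereas 36.1% of the genes tested were called between the letters. Its rates therefore need not hold for the fits of age alone in these data. Depth was 861047 to 5118507 reads on genes, and intervals from 12 mice cover the spread between mice only.

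The members and lists were chosen with earlier results of these data known. Named from each list were the genes called in either age model and the 2 with the smallest p for age, 1 of which is not reported here. Positions are from GENCODE vM21 (GRCm38), in which 18745 gene IDs were found, and promoter sequences from RefSeq (GRCm38.p6). Of the 6 members with a row 5 had a promoter window, and *Gprc5c* had none. Whether same-numbered mice of the 2 ages were paired could not be settled from their deviations, and no pairing was used in the main fits.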

Additional observations from a re-analysis of the deposited data

Results flagged for a closer look

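Within each age, the highest and the lowest mouse were compared with the rest for the members and the named genes, and 3 of 42 groups held a mouse far from the others, where chance gives about 1 in 20 groups or 2.1 of 42. *Cyp26b1* in old mouse 1 was 302, with the other 6 old mice at 54.1 to 138. *Dhrs3* in the same mouse was 102, with the others at 35.5 to 44.4. *Crabp1* in old mouse 5 was 11.8, from 15 reads, with the others at 0.759 to 4.97. Both mice carry the letter A, and the parts of depth and of the letter in these values were not tested.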

How the results depend on the processing

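Of 936 single-gene values recomputed under other settings, 819 kept direction and side of the threshold, 53 passed where the stated value had not, 22 no longer passed and 42 changed sign. The count of genes called for age, 13, was 37 with the letter as a covariate, 22 at a minimum mean of 30, 2 with no trend, 1 in letter A alone, 100 in letter B alone, 5 after median-ratio rescaling and 57 by DESeq2, and, chosen after seeing the data, 43 by edgeR and 81 by DESeq2 with the letter. The fits with the letter that leave out 1 mouse or rescale were also chosen after seeing the data. Leaving out 1 mouse gave 3 to 32. Members called, 0 for age alone, became 1 (*Cyp26b1*) with the letter as a covariate, in letter B alone, by DESeq2, and by edgeR and DESeq2 with the letter. The replicate block over replicates 1 to 5 called 19 genes and 1 member, with *Cyp26b1* at 1.51 (adjusted p = 0.0342), with the letter added it called 88 genes and 1 member, and the same 10 mice without the block gave 8 genes. Same-numbered mice correlated at -0.559 to 0.615 (mean 0.137) in their deviations, and other pairs at -0.707 to 0.712 (mean -0.023). Pairs of the same letter averaged 0.348 and pairs of different letters -0.329. The deviations still held the letter, so they could not show whether the numbers paired the mice.

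Between the letters, members called went from 1 to 2 at a minimum mean of 1, where *Crabp1* was added, and were 0 to 1 when 1 mouse was left out. Genes called, 4462, ran from 2943 to 5003 when 1 mouse was left out and were 6522 at a minimum mean of 1, 5896 after median-ratio rescaling, 4392 at a pseudocount of 0.5, 3845 with no trend and 3804 by edgeR. *Top2a* also passed with the replicate block and the letter (-0.84, adjusted p = 0.00070). Sign changes, with the cause not tested, touched differences that had not passed. The letter difference of *Rxra* was 0.22 after median-ratio rescaling, and that of *Cyp26b1* was -0.21 by edgeR. Without 1 mouse the letter difference ran from -0.15 to 0.30 in *Cyp26b1* and from -0.047 to 0.13 in *Rara*. The age difference in letter B alone was -0.50 in *Aldh1a3*, 0.054 in *Ncoa2*, 0.25 in *Gps2*, -0.028 in *Ppara* and -0.26 in *Pparg*. With the letter it was -0.047 in *Aldh1a3* by edgeR and -0.047 by DESeq2, and -0.064 by edgeR and -0.066 by DESeq2 in *Ppara*. Without 1 mouse the age difference ran from -0.46 to 0.23 in *Aldh1a2*, -0.086 to 0.68 in *Aldh1a3* and -0.15 to 0.60 in *Pparg*. With the letter in the model it ran from -0.54 to 0.072 in *Aldh1a2*, -0.19 to 0.49 in *Aldh1a3*, -0.21 to 0.018 in *Ncoa2*, -0.24 to 0.089 in *Gps2*, -0.29 to 0.36 in *Ppara* and -0.23 to 0.45 in *Pparg*. Depth limits *Crabp1* most, with 3 to 22 reads.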

Other observations

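Of the 9 tested genes that retinoic acid is known to induce, 3 had their highest count in old mouse 1 (*Cyp26b1*, *Dhrs3* and *Cd38*), and no other mouse was highest in more than 1. In this mouse *Gprc5c*, at 67.3, *Rxra*, at 55.1, and *Sult1a1*, at 254, were also the highest of the 12 mice, whereas *Rara*, at 38.4, and *Rxrb*, at 38.4, were near the middle. These values were noticed after the data were seen and carry no test. The share of all genes that were highest in old mouse 1 is not given here. Whether the 3 of 9 is particular to these genes was therefore not tested.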
